A study of Mus musculus with 10 samples.

Results

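The genes described here code for axon guidance molecules, for the receptors of neurotrophins and of the GDNF family, and for synaptic adhesion molecules. They were chosen by name: every protein-coding gene of the deposited table called a semaphorin, plexin, neuropilin, Eph receptor, ephrin, slit, robo, netrin, Unc5 receptor, Dcc, neurexin, neuroligin, contactin, Ntrk, Gfra, Ret or Ngfr. This gave 89 of 22046 protein-coding genes, of 54532 genes in all. RNA was measured in 10 libraries of small intestinal cells, taken from 5 litter-matched Gucy2c-GFP mice of the CD1/ICR strain at 10 weeks of age. Cells of each mouse were sorted by GFP brightness into a GUCY2C-hi and a GUCY2C-med group, 20000 cells each. Both groups carried the same GFP transgene, which the Gucy2c promoter drives, so the groups are levels of a reporter and not of a cell type. Before sorting, the dissociated epithelium was held in a medium that held artemin, which binds a receptor among these genes.

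Axon guidance works through secreted or membrane-bound cues that attract or repel a growing cell process. Semaphorins signal through plexins, with neuropilins as coreceptors of the secreted class 3 members, ephrins through Eph receptors, slits through robos and netrins through Dcc and the Unc5 receptors. Neurotrophins signal through the Ntrk kinases, and the GDNF family ligands through the kinase Ret together with a Gfra coreceptor that sets which ligand is bound. Neurexins and neuroligins join the 2 sides of a synapse, and contactins are adhesion molecules of axons. In the intestinal epithelium, ephrins and Eph receptors are known for positioning cells along the crypt, while enteroendocrine cells are hormone-producing cells that can extend basal processes.

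Each library held from 10903958 to 15307932 counted reads, so that 1 cpm, the unit of level used here (counts scaled to the size of the library), stood for about 10.7 to 16.6 reads. The reporter's own gene, Gucy2c, was at 1532, 1752, 1021, 1757 and 549 cpm in the GUCY2C-hi libraries of mice 2, 7, 12, 14 and 15, and at 483, 385, 323, 375 and 456 cpm in the GUCY2C-med libraries, in the same order of mice, which is kept throughout. Of 15 enteroendocrine marker genes, 14 were higher in GUCY2C-hi, and their summed level was 33707 to 132248 cpm against 123 to 410.0 cpm. The 10 enterocyte genes summed to 2608 to 27932 cpm in GUCY2C-hi and to 48762 to 67068 cpm in GUCY2C-med. Within GUCY2C-hi the libraries of mice 12 and 15 stood apart, with 27282 and 27932 cpm of enterocyte genes where the other libraries had 2608 to 3620.1 cpm. Camk2a, a kinase of forebrain excitatory neurons, was at 2.02, 30.5, 25.2, 2.54 and 81.8 cpm in GUCY2C-hi and at 35.3, 1.04, 43.8, 34.4 and 16.7 cpm in GUCY2C-med. It was therefore low in GUCY2C-hi of mice 2 and 14 and in GUCY2C-med of mouse 7.

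Of the 89 genes, 75 had more than 0.5 cpm in at least 3 libraries and were tested. The 14 others, among them Ngfr, Dcc, Ntn1, Robo3 and Robo4, stayed at or below 0.819 cpm in every library. In GUCY2C-hi, 14 of the 75 were higher and 5 were lower at an adjusted p under 0.01 (edgeR's quasi-likelihood test, Benjamini-Hochberg adjustment over all 15703 tested genes), and 56 did not pass. Over all tested genes, 13.9% were higher and 8.79% lower, so the members' shares of 18.7% and 6.67% lay near the background. Their median log2 fold change was 0.16, beside 0.09 for all tested genes. With the mouse as replicate block, 8 of the 75 were higher and 1 was lower, where 8.24% and 4.96% of all tested genes were. The plexins and neuropilins held 3 higher genes of 10 tested, and the slits, robos, neurexins and neuroligins none of 11 in either direction. Because the libraries were made from bulk cells, fewer cells of a type and less RNA per cell cannot be told apart.

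Promoters of 4 genes past the threshold are shown because they moved in the same comparison. They are those of the 3 higher genes with the largest fold change and of the lower gene with the largest fall, among genes whose promoter could be taken from the RefSeq table (GRCm38.p6). Each runs from 250 bases before to 50 after the start of transcription, 5′ to 3′ on the gene's strand, with capitals for 2 forms of the E-box, the motif bound by basic helix-loop-helix factors. The forms searched were CAGATG, also read as CATCTG from the other strand, and the palindrome CAGCTG.
Nrp1, chr8:128358823-128359122, plus strand: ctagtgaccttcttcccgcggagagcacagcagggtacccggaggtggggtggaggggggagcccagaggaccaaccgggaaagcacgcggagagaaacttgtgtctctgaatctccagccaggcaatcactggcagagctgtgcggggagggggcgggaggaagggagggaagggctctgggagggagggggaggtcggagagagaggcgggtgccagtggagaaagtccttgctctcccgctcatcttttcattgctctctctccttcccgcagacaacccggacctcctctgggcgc
Gfra1, chr19:58455349-58455648, minus strand: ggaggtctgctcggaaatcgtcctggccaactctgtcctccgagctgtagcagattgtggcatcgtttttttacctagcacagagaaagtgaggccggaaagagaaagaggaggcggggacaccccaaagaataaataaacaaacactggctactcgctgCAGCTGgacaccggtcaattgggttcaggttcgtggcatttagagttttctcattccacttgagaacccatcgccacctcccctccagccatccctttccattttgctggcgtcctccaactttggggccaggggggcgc
Epha3, chr16:63864126-63864425, minus strand: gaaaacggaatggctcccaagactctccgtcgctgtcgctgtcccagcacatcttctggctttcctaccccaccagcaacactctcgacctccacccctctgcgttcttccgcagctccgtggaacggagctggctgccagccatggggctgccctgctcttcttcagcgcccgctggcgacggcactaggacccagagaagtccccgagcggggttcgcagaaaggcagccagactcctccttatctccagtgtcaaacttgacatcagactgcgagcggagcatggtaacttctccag
Epha1, chr6:42373219-42373518, minus strand: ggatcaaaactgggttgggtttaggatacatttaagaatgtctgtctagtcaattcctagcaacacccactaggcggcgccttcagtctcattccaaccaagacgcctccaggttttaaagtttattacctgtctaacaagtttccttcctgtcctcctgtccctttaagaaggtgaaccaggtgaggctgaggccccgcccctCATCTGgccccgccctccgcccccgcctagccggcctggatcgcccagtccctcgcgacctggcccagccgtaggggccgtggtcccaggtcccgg
The window of Gfra1 held 1 CAGCTG, beginning 90 bases before the start, and that of Epha1 held 1 CATCTG, beginning 46 bases before it. Those of Nrp1 and Epha3 held neither. Of the 10 higher genes with an entry, 1 held CAGATG and 1 CAGCTG, while 17.2% and 16.3% of all 32851 promoters of that length did. For Nrp1 and Gfra1 the RefSeq start lay 469 and 511 bases from the start in the deposited table.

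Of the GDNF family receptors, Gfra3, Ret and Gfra1 were higher in GUCY2C-hi (gene positions are those of GRCm38). Gfra3, the coreceptor that binds artemin (chr18:34689903-34720387), had 438, 522, 273, 676 and 179 cpm in GUCY2C-hi and 0.936, 1.36, 1.94, 3.905 and 2.396 cpm in GUCY2C-med. The lowest GUCY2C-hi library was far above the highest GUCY2C-med library, and the log2 fold change was 7.62 (SE 0.53, adjusted p = 4.74e-06). Ret, the kinase shared by all GDNF family ligands (chr6:118151745-118197718), had 62.3, 71.8, 40.3, 50.6 and 19.2 cpm against 1.03, 0.161, 0.288, 0.526 and 0.428 cpm. Its groups did not overlap either, with a log2 fold change of 6.65 (SE 0.51, adjusted p = 6.95e-06), and mouse 15 was again the lowest GUCY2C-hi library. That library also had the lowest level of Chga, the granule protein of endocrine cells, at 1428 cpm where the other GUCY2C-hi libraries had 7298 to 15797 cpm. The part of this in the lower values was not tested.

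Gfra1, the coreceptor of GDNF (chr19:58235604-58455909), had 8.47, 4.88, 2.57, 11.7 and 2.64 cpm against 0.843, 0, 0.288, 0.225 and 0 cpm. Its log2 fold change was 4.47 (SE 0.86, adjusted p = 0.002305), with no overlap and no counted read in 2 GUCY2C-med libraries. Gfra3, Ret and Gfra1 kept an adjusted p under 0.01 with the replicate block and in each of the 10 fits that left out 1 library.

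Other receptors of this group did not pass. Gfra4, the coreceptor of persephin, had 0.471, 12.1, 10.4, 0.463 and 39.2 cpm against 13.3, 0.401, 19.3, 12.6 and 8.56 cpm, and its log2 fold change was 0.21 (SE 1.05, adjusted p = 0.911). Ntrk2 and Ntrk3, the receptors of BDNF and neurotrophin-3, had log2 fold changes of 0.09 (SE 0.73, adjusted p = 0.945) and 0.36 (SE 0.74, adjusted p = 0.752). Gfra2, the neurturin coreceptor, reached at most 1.41 cpm. A p that misses the threshold does not show that these genes were alike in both groups. A list of 7 markers of dorsal root ganglion neurons, which express Ret and Gfra3, was looked at beside them. Only Isl1 and Tac1, both also known from enteroendocrine cells, passed the test among 3 tested. The other tested marker, Avil, had a log2 fold change of 1.97 (SE 0.60, adjusted p = 0.0229 in edgeR). Calca and P2rx3 stayed at or below 0.504 cpm, and Scn10a and Mrgprd had no read in any library.

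**Figure D1:**
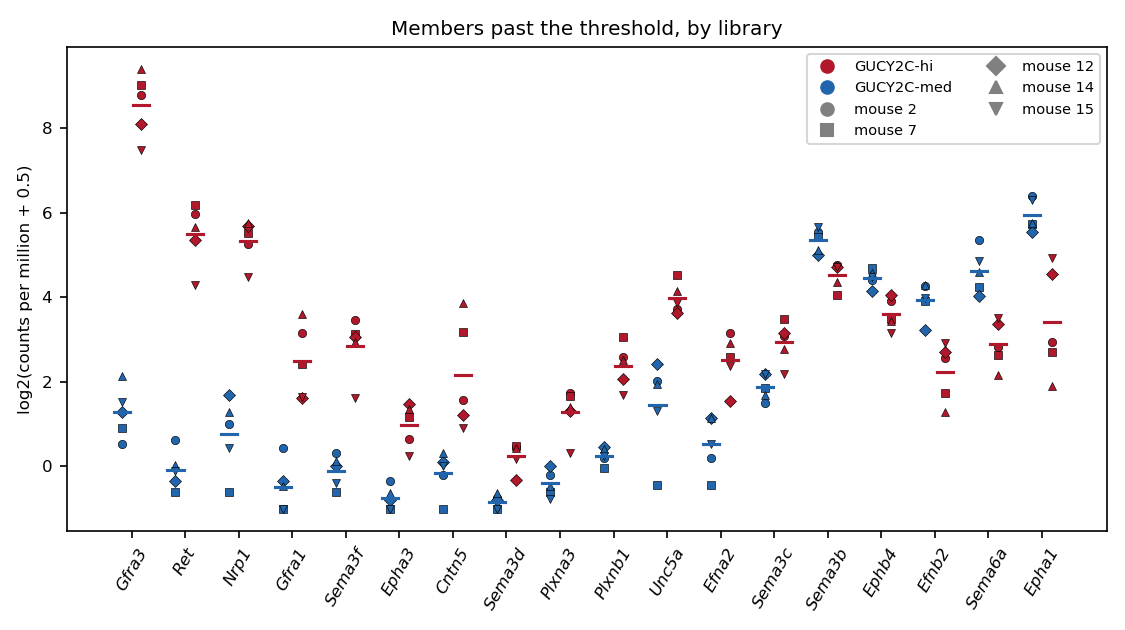
Level of 18 of the 19 genes past the threshold in each of the 10 libraries, as log2(cpm + 0.5) on the vertical axis, with GUCY2C-hi in red, GUCY2C-med in blue, a symbol for each mouse and a bar for the mean of 5 libraries. Gfra3 lay between 179 and 676 cpm in GUCY2C-hi and at most at 3.905 cpm in GUCY2C-med, and Sema3c is the gene whose groups overlap.

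Among the semaphorin receptors, Nrp1, Plxna3 and Plxnb1 were higher in GUCY2C-hi. Nrp1, the coreceptor of class 3 semaphorins and of VEGF (chr8:128358604-128503363), had 37.99, 45.3, 50.7, 53.5 and 21.9 cpm in GUCY2C-hi and 1.498, 0.161, 2.74, 1.95 and 0.856 cpm in GUCY2C-med. The groups were well apart, with a log2 fold change of 4.84 (SE 0.54, adjusted p = 7.56e-05). Nrp1 is also an endothelial gene, and 3 of the 4 tested genes of a mesenchyme and endothelium list, Col1a2, Pecam1 and Vwf, were higher as well, calls that were all lost in edgeR with the replicate block. The 8 genes of that list summed to 2.77 to 10.9 cpm in GUCY2C-hi and 0.514 to 1.22 cpm in GUCY2C-med, and Kdr, a defining endothelial receptor, stayed at or below 0.3601 cpm. The part of such cells in the level of Nrp1 was not tested. Nrp2 had a log2 fold change of 0.83 (SE 0.64, adjusted p = 0.337).

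Plxnb1, a receptor of class 4 semaphorins, had 5.51, 7.84, 3.71, 5.24 and 2.71 cpm in GUCY2C-hi against 0.655, 0.482, 0.864, 0.826 and 0.685 cpm in GUCY2C-med, with a log2 fold change of 2.81 (SE 0.37, adjusted p = 2.18e-04). Plxna3, which pairs with neuropilins, had 2.82, 2.65, 1.97, 2.16 and 0.756 cpm against 0.374, 0.161, 0.504, 0.225 and 0.0856 cpm, with a log2 fold change of 2.89 (SE 0.54, adjusted p = 0.00198). Neither overlapped between the groups, and both held with the replicate block. Plxnc1 and Plxnd1 did not overlap either but missed the threshold, with adjusted p of 0.0221 and 0.0971 in edgeR. Plxnb2, the plexin with the highest level per kb, had 45.4 ± 14.4 cpm (SD, n = 5) in GUCY2C-hi and 42.98 ± 11.9 cpm (SD, n = 5) in GUCY2C-med.

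The ligands went in both directions. Of the 5 tested class 3 semaphorins, which are secreted, Sema3c, Sema3d and Sema3f were higher and Sema3b was lower. Sema3f (chr9:107681500-107710475) had 10.6, 8.32, 7.87, 7.25 and 2.58 cpm in GUCY2C-hi and 0.749, 0.161, 0.504, 0.601 and 0.257 cpm in GUCY2C-med, a log2 fold change of 3.99 (SE 0.49, adjusted p = 1.66e-04) without overlap. Sema3d was scarce, with 53 reads in GUCY2C-hi and 4 in GUCY2C-med. The ratio of scaled totals was 11.2 (95% exact counting interval 4.12 to 42.5, spread between mice left out). Sema3c overlapped at the edge, since mouse 15 had 4.03 cpm in GUCY2C-hi and mouse 12 4.03 cpm in GUCY2C-med, and it was higher in 5 of 5 mice with a log2 fold change of 1.20 (SE 0.30, adjusted p = 0.00901). Of these, Sema3f alone kept its call with the replicate block, while Sema3d and Sema3c had adjusted p of 0.0231 and 0.0348 there.

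Sema3b (chr9:107597674-107609229) had 26.6, 16.2, 25.8, 19.96 and 25.7 cpm in GUCY2C-hi and 46.2, 42.4, 31.5, 34.4 and 50.6 cpm in GUCY2C-med, and its log2 fold change was -0.84 (SE 0.20, adjusted p = 0.00608). Sema6a, a membrane-bound semaphorin (chr18:47235598-47368870), had 6.59, 5.67, 9.77, 4.01 and 10.96 cpm against 40.6, 18.5, 15.9, 23.9 and 28.8 cpm, with a log2 fold change of -1.79 (SE 0.33, adjusted p = 0.00192). Both were lower in 5 of 5 mice without overlap, and Sema6a was the one lower gene that kept its call with the replicate block (adjusted p = 0.00816). Sema4a, one of the most abundant members per kb in both groups, had 92.9 ± 22.5 cpm (SD, n = 5) in GUCY2C-hi and 118 ± 40.6 cpm (SD, n = 5) in GUCY2C-med and was not called. Sema4d missed the threshold with a log2 fold change of 1.07 (SE 0.32, adjusted p = 0.0198) and passed it when the mean level of 14 forebrain genes was a covariate (adjusted p = 0.008803), but not with the replicate block (0.0758) or with block and covariate together (0.0271).

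Eph receptors and ephrins also went both ways. Epha1 (chr6:42358487-42373268) fell from 83.98, 52.7, 46.02, 53.99 and 78.1 cpm in GUCY2C-med to 7.195, 6.03, 23.1, 3.24 and 29.9 cpm in GUCY2C-hi, with a log2 fold change of -2.18 (SE 0.54, adjusted p = 0.00832). The GUCY2C-hi libraries of mice 12 and 15 were nearest to GUCY2C-med, and these are the libraries with the most enterocyte RNA, whose part in the result was not tested. Zyx and an antisense gene overlap Epha1, and since the strand setting of the counting is not given in the sources used here, their reads cannot be told apart. Efnb2, a membrane-bound ephrin known for its place in vessels and crypts (chr8:8617434-8661242), had 5.38, 2.83, 5.98, 1.93 and 7.05 cpm against 18.7, 14.5, 8.93, 19.1 and 15.2 cpm, a log2 fold change of -1.72 (SE 0.36, adjusted p = 0.00361). Its receptor Ephb4 (chr5:137350109-137378669) had 14.5, 10.8, 16.05, 10.4 and 8.38 cpm against 20.7, 25.3, 17.3, 23.5 and 21.8 cpm, with a log2 fold change of -0.85 (SE 0.21, adjusted p = 0.00778). Gene models of unsettled type overlap Efnb2, and Zan overlaps Ephb4.

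Most lower calls did not hold in every fit. With the replicate block the adjusted p was 0.0101 for Epha1, 0.0149 for Sema3b, 0.01604 for Efnb2 and 0.0285 for Ephb4. The count of lower genes went from 5 to 1 without GUCY2C-hi of mouse 2 or 7 or GUCY2C-med of mouse 2 or 15, and to 2 without GUCY2C-hi of mouse 14 or GUCY2C-med of mouse 7 or 14. The count of higher genes went from 14 to 9 without GUCY2C-med of mouse 15. From a list of 10 crypt and cell cycle genes, Top2a, Ccnb1, Mcm2 and Mcm5 were lower too, calls that were likewise all lost in edgeR with the replicate block. That list summed to 249.1 to 1031 cpm in GUCY2C-hi and 921 to 1424 cpm in GUCY2C-med. Its part in the lower calls was not tested.

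Epha3 and Efna2 were the higher members of these families. Epha3 had 113 reads in GUCY2C-hi and 6 in GUCY2C-med. The ratio of scaled totals was 15.9 (95% exact counting interval 7.08 to 44.2, spread between mice left out). Its adjusted p was 0.00236 in edgeR and 0.0117 in edgeR with the replicate block. Efna2, an ephrin tethered to the membrane by a lipid anchor, had 8.41, 5.49, 2.42, 7.01 and 4.72 cpm against 0.655, 0.241, 1.73, 1.73 and 0.941 cpm, with a log2 fold change of 2.39 (SE 0.51, adjusted p = 0.00425) and an adjusted p of 0.0198 with the block. Efna1 and Efnb1 stood among the highest members per kb in both groups. Efna1 had 76.5 ± 10.2 cpm (SD, n = 5) in GUCY2C-hi and 114 ± 50.5 cpm (SD, n = 5) in GUCY2C-med, where mouse 7 had 204 cpm, and Efnb1 had 40.2 ± 6.16 and 51.7 ± 10.7 cpm (SD, n = 5). Neither was called.

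Per kb of gene length, the 5 highest members in GUCY2C-hi were Gfra3 at 209.7 cpm per kb, Efna1 at 41.8, Sema4a at 17.2, Efnb1 at 11.7 and Ret at 7.22. In GUCY2C-med they were Efna1 at 62.5 cpm per kb, Sema4a at 21.8, Epha1 at 16.03, Efnb1 at 14.99 and Sema3b at 8.59. The lists shared Efna1, Sema4a and Efnb1.

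Of the netrins and their receptors, Unc5a (chr13:54949411-55006018) was higher, at 12.7, 22.4, 11.96, 17.2 and 14.04 cpm in GUCY2C-hi and 3.56, 0.241, 4.83, 3.38 and 1.97 cpm in GUCY2C-med. Its log2 fold change was 2.48 (SE 0.53, adjusted p = 0.00392) without overlap, and its adjusted p was 0.0218 with the replicate block. Ntn4, the one netrin tested, had 10.8 to 26.5 cpm against 5.98 to 18.5 cpm and did not pass (adjusted p = 0.0824 in edgeR), although it was higher in 5 of 5 mice. Among the contactins Cntn5 was higher, at 2.49, 8.62, 1.82, 14.2 and 1.39 cpm against 0.374, 0, 0.576, 0.751 and 0.514 cpm, with a log2 fold change of 3.65 (SE 0.84, adjusted p = 0.00598) and an adjusted p of 0.0354 with the block. Mice 7 and 14 held most of its GUCY2C-hi reads. Of the 75 tested members, 17 were above and 8 below GUCY2C-med without any overlap of the 5 against 5 libraries. Over all tested genes, 16.7% were above and 13.2% below.

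**Figure D2:**
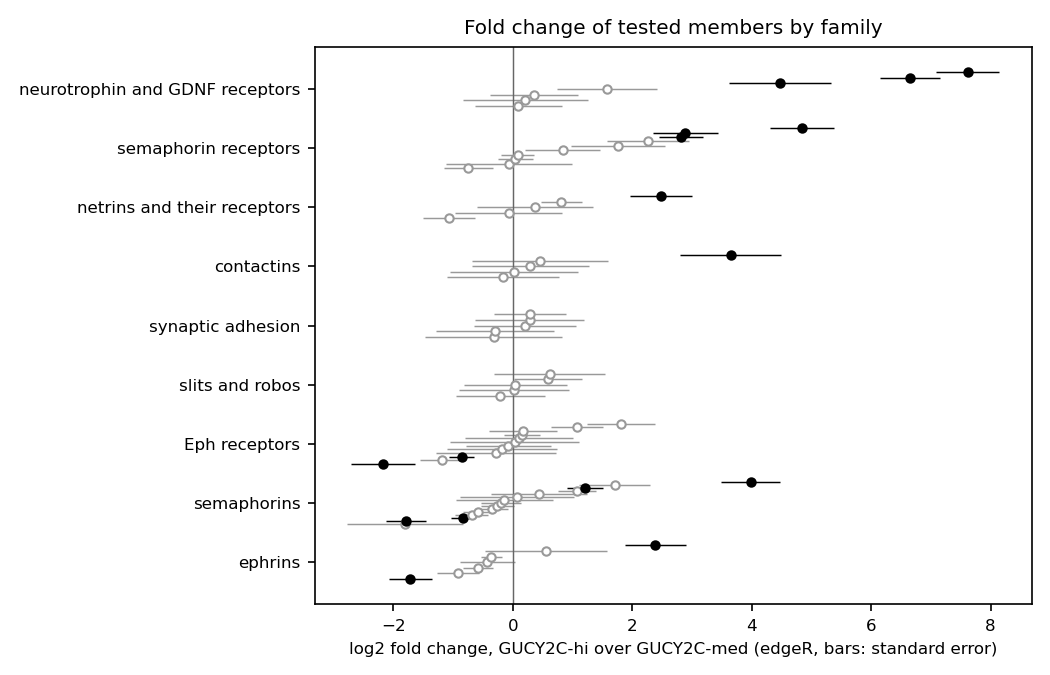
Log2 fold change of GUCY2C-hi over GUCY2C-med on the horizontal axis for tested members by family, with bars for the standard error of the edgeR fit, filled points past an adjusted p of 0.01 and open points that did not pass. Genes with at most 3 reads in every GUCY2C-med library, such as Epha3 and Sema3d, are left out, and the points farthest right are Gfra3 at 7.62 and Ret at 6.65.

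The synaptic adhesion genes showed another pattern. All 6 neurexins and neuroligins were tested and none passed, and their log2 fold changes ran from -0.32 to 0.29. Nrxn3, a presynaptic adhesion receptor, had 0.605, 7.36, 3.79, 0.308 and 10.96 cpm in GUCY2C-hi and 4.49, 0.562, 5.76, 7.06 and 2.23 cpm in GUCY2C-med, and its log2 fold change was 0.20 (SE 0.85, adjusted p = 0.895). It was low in GUCY2C-hi of mice 2 and 14 and in GUCY2C-med of mouse 7, where Camk2a was low. Cntn1, a contactin of neurons and glia, had 0.807, 15.6, 9.69, 0.617 and 34.2 cpm against 18.4, 1.12, 20.6, 17.8 and 10.4 cpm. The same libraries were low, and the groups overlapped.

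Of the 27 members with at least 10 reads in every GUCY2C-med library, 1 had a ratio to Camk2a that varied at most 2-fold there, which is 3.704% beside 0.474% of all such genes. By a 3-fold limit 2 members did, and with Nrgn in place of Camk2a no member met the 2-fold limit.

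Of the 75 tested members, 34 had their 2 lowest GUCY2C-hi libraries in mice 2 and 14 and their lowest GUCY2C-med library in mouse 7, as Camk2a did. That is 45.3% beside 10.4% of all tested genes, and the pattern was looked for after the values were seen. The 34 included all neurexins and neuroligins, all 3 slits, Robo1 and Robo2, 4 of the 5 tested contactins, Ntrk2, Ntrk3, Gfra4 and 6 Eph receptors. None of the 19 called genes was among them. The pattern itself spreads a gene within both groups, which makes a call between them less likely, so nothing is drawn from this. Of 14 forebrain neuron genes, 13 did not pass the test, and the list summed to 109 to 1589 cpm in GUCY2C-hi and 772 to 1302 cpm in GUCY2C-med. The one that did, Ppp1r1b, was lower in GUCY2C-hi and alone gave 428 cpm or more of the GUCY2C-med sums. Of the enteric neuron markers, Chat and Hand2 had no read in GUCY2C-med, and Hand2 had none in GUCY2C-hi either. The part of brain transcripts in these 34 members was not tested.

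**Figure D3:**
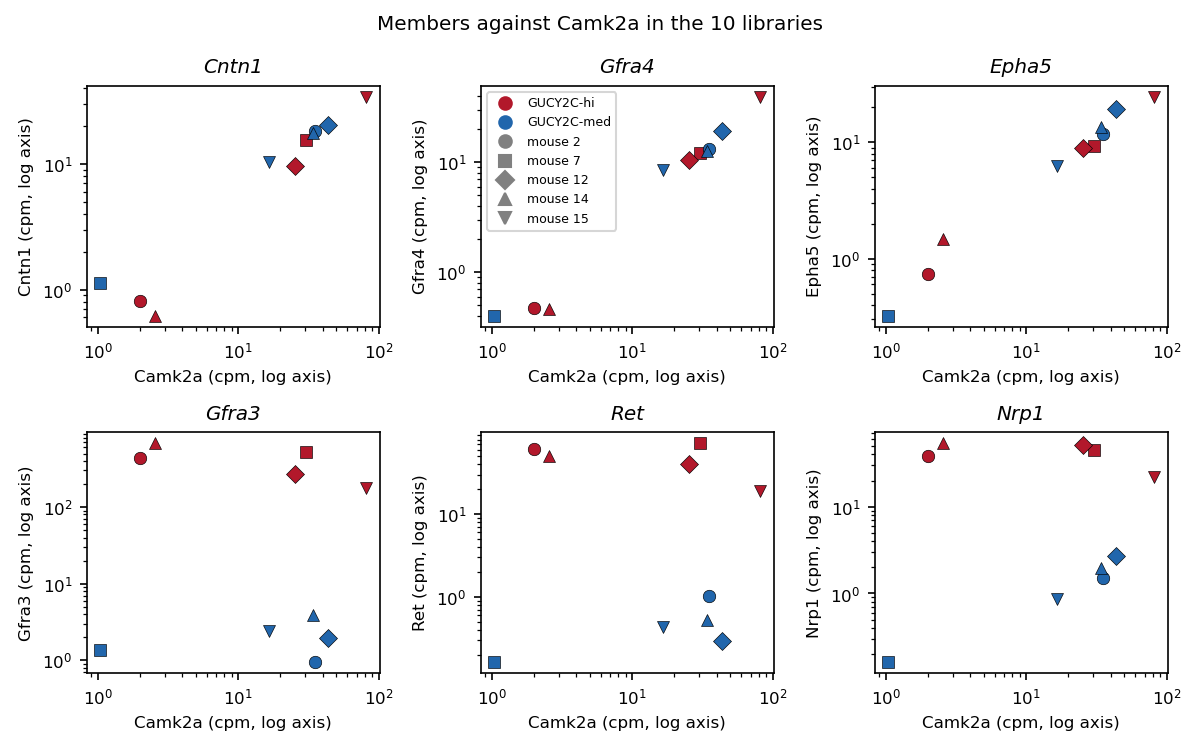
Level of 6 members (vertical, cpm, log axis) against Camk2a (horizontal, cpm, log axis) in the 10 libraries, GUCY2C-hi in red and GUCY2C-med in blue, with a symbol for each mouse. Cntn1, Gfra4 and Epha5 are low in the 3 libraries where Camk2a is at 1.04 to 2.54 cpm, whereas Gfra3, Ret and Nrp1 are high in all GUCY2C-hi libraries.

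**Figure D4:**
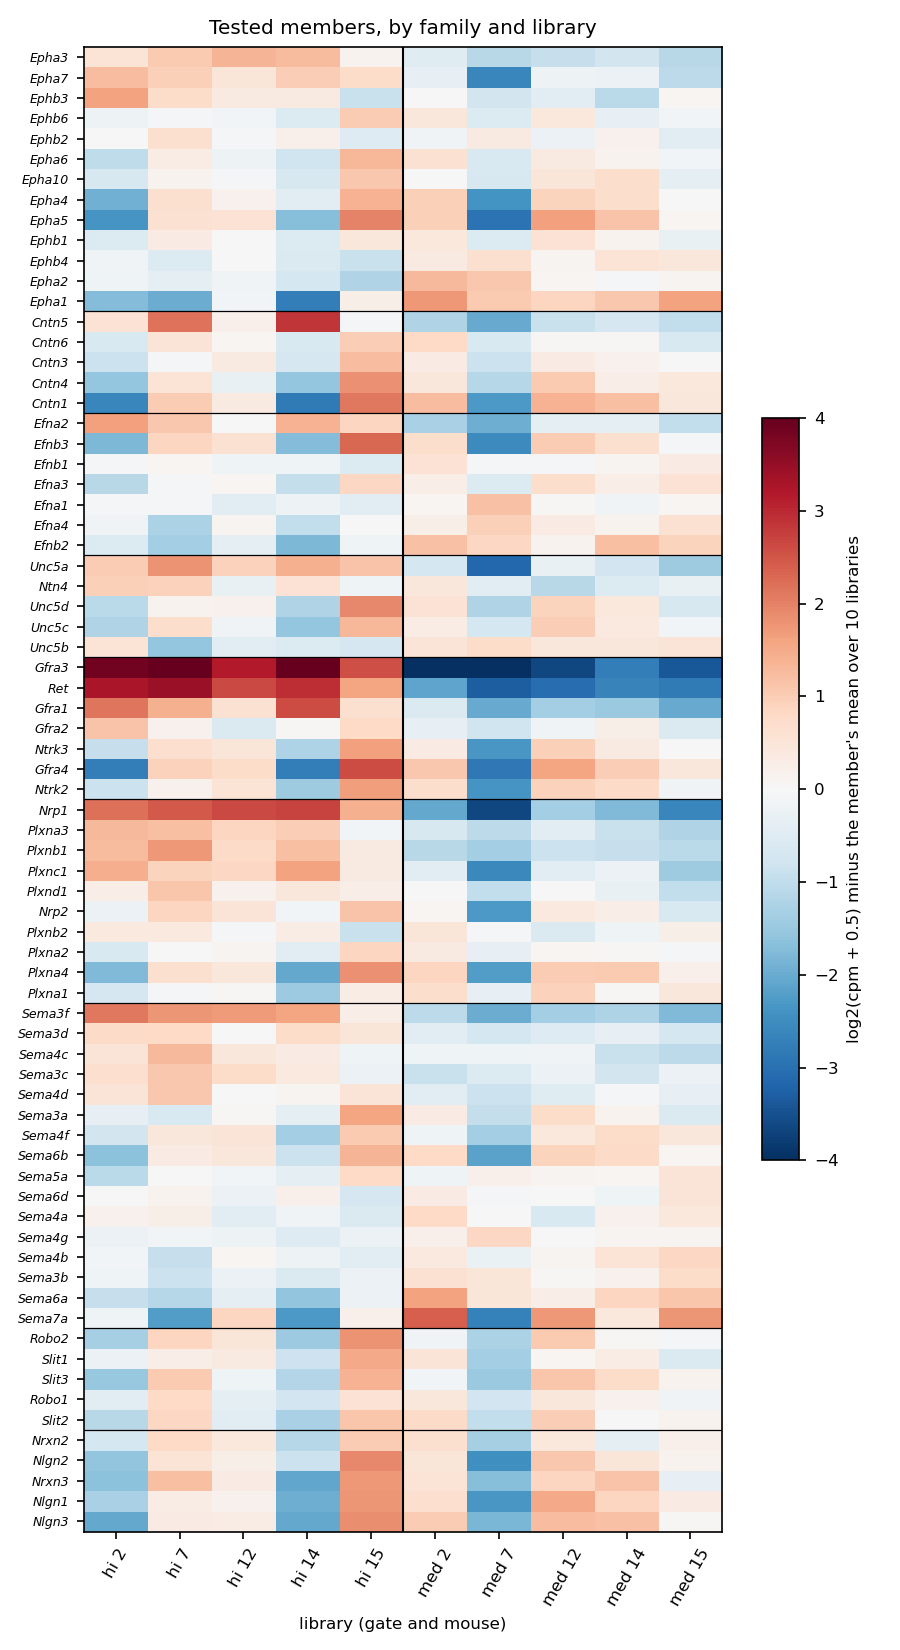
Of the 75 tested members, 73 in rows, by family, and the 10 libraries in columns, coloured by log2(cpm + 0.5) minus the member's mean over the 10 libraries, with colours saturated beyond 4. Gfra3, Ret and Nrp1 are red in all 5 GUCY2C-hi columns, and Cntn1, Nrxn3 and Nlgn1 are blue in GUCY2C-hi of mice 2 and 14 and GUCY2C-med of mouse 7.

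Other genes of the same pathways were counted from lists, to be read beside the 13.9% higher and 8.79% lower among all tested genes. Of 23 tested partners of the neurotrophin and GDNF receptors, 7 were higher (30.4%) and 1 was lower (4.35%), with a median log2 fold change of 0.89 beside 0.09 for all tested genes. Shc2, an adaptor of receptor kinases, had a log2 fold change of 4.39, Maged1 3.27, Bex3 2.64, the neurotrophin Bdnf 2.60 and the sortilin relative Sorcs2 2.40, while the adaptor Gab1 fell by 1.22. Of these ligands and receptors, Gdnf and Gfral had no read in any library. Among 36 tested signalling partners of guidance receptors, 5 were higher (13.9%) and 5 lower (13.9%), so that the higher share was that of all tested genes. Dpysl3 and Dpysl2, collapsin response mediators of semaphorin signalling, had log2 fold changes of 2.67 and 1.59 and the exchange factor Vav3 1.37, whereas Mical1, Vav2, Farp2, Rac1 and Pak1 had -2.35, -1.96, -1.68, -0.96 and -0.74.

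Of 18 tested further guidance ligands and coreceptors, 4 were higher (22.2%) and 1 lower (5.56%). Rgmb, a ligand of neogenin, had a log2 fold change of 0.78, and Flrt3, which binds Unc5 receptors, -1.13. Of 53 tested further synaptic adhesion genes, 5 were higher (9.43%) and 2 lower (3.77%), both shares below those of all tested genes. Ncam2, Lrfn4 and Cntnap2 had log2 fold changes of 4.34, 2.58 and 2.54, and Igsf9 and Cask -2.40 and -0.81. With the replicate block, 8.24% of all tested genes were higher and 4.96% lower. In that fit 7 of the 23 neurotrophin and GDNF partners were higher and 1 was lower. Of the 36 signalling partners, 2 were higher and 3 lower. Of the 18 further ligands and coreceptors, 0 were higher and 0 lower. Of the 53 further synaptic adhesion genes, 3 were higher and 1 was lower.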

How the data were processed

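RNA was measured in GUCY2C-hi and GUCY2C-med cells of 5 mice. The counts the authors deposited are unscaled reads for each gene, made by the sequencing provider from paired-end reads aligned with STAR, and the FPKM values the authors deposited are scaled by length and depth. The counter and its strand setting are not given in the sources used here. The labels name mm9, but all 89 members overlap their gene in GRCm38.p6 and 33 do in NCBIM37, so positions are given as GRCm38. The authors' comparison (log2 fold changes, p-values) and 10 further columns of values per library were not used.

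Testing was limited to genes above 0.5 cpm in 3 or more libraries and done with edgeR 4.0.16 (R 4.3.3), TMM factors and group alone, at an adjusted p under 0.01. limma 3.58.1 and DESeq2 1.42.0 were alternatives. The scripts were tested on simulated data that held no effect of the mouse, and there many of the smaller changes put in were not called. Further values were computed with scipy 1.17.1 in Python 3.11.15. A gene with at most 3 counts in every library of a group is given as a ratio of totals with a 95% counting interval, not as a fitted fold. That interval was taken on reads pooled over the libraries of a group, so it leaves out the spread between mice. Promoters came from RefSeq, with entries for 71 of 89 members. Among the called members reported here, Ret, Gfra3, Sema3f, Sema3b and Sema6a had none. FPKM served to check the order of levels.

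Genes were named if past the threshold, among the 5 highest per kb in a group, of steady ratio to Camk2a (at least 10 counts in every GUCY2C-med library, at most 2-fold variation), or changed in call by the replicate block or the forebrain covariate, and in pathway lists up to 5 per direction with at least 5 cpm on average. Members named beyond this rule, such as Gfra4, Cntn1 and Nrxn3, were chosen after their values were seen. Some genes under this rule are not reported here, though the counts hold them. The members and lists were chosen with earlier results of these data known. The mouse numbers pair the libraries because each mouse was sorted into both groups. The main fit left this pairing out, and the fit with the replicate block used it. With the block in edgeR, 9 of the 19 calls held and 10 were lost. The deviations of paired libraries from their group means correlated at -0.1096, -0.223, 0.272, -0.124 and 0.0607 for mice 2, 7, 12, 14 and 15.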

Additional observations from a re-analysis of the deposited data

Results flagged for a closer look

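In 44 sets of 5 libraries (the named genes in each group), Dixon's test at the 95% level marked 1 value, where chance marks about 1 in 20. Efna1 in GUCY2C-med of mouse 7 stood apart at 204 cpm, where the other 4 libraries had 82.5 to 95.3 cpm.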

How the results depend on the processing

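Of the 19 calls, all 19 kept direction and threshold with DESeq2 and with the forebrain covariate, 18 with RLE factors and 17 with limma-voom. An adjusted p under 0.05 was a looser limit on the same fit, so it could lose none of them. The 14 higher members became 8 with the edgeR replicate block, 9 with limma-voom and the replicate block, 3 when at least 10 counts were required in every library, where 7 of the called members could be tested, and 2 in the 4 libraries with Camk2a under 20 cpm, a setting chosen after the data were seen. The 5 lower members became 1 with the edgeR replicate block, 3 with limma-voom and the replicate block, 3 with the replicate block and the forebrain covariate, 1 without TMM factors, 3 without a filter, 3 with at least 10 counts in every library and 1 in the 4 libraries. Leaving out 1 library gave 9 to 15 higher and 1 to 5 lower members. Members of steady ratio to Camk2a numbered 1, then 2 by the 3-fold limit and 0 against Nrgn. The causes of these changes were not tested, apart from the fewer genes and libraries that some settings hold. By deposited FPKM, chosen after the data were seen, 4 of the 5 highest members in GUCY2C-hi and all 5 in GUCY2C-med were the same genes. Members below about 1 cpm rest on few reads, and a call missed at this depth and spread is no sign of equal levels.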
